A study of Mus musculus with 24 samples.

Results

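The cytosolic ribosomal protein genes encode the protein components of the ribosome that translates messages in the cytosol. They were taken here as all array gene names that start with Rpl or Rps followed by a number, with an optional letter or x, together with the stalk genes Rplp0, Rplp1 and Rplp2 and with Rpsa, and without the Rps6k kinases. The array names 82 such genes, on 141 probes. Of these, 81 were kept because all 3 arrays of some group had a probe of theirs well above background, out of 15096 gene names tested in all. The gene left out was Rpl39l, a paralog of Rpl39 known from testis. The genes comprised 31 of the small subunit, 43 of the large subunit, 3 of the stalk and 4 paralogs (Rpl3l, Rpl7l1, Rpl22l1 and Rps27l).

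RAW264.7 is a mouse macrophage-like cell line. All cells were kept in medium with 400 µg/ml G418, which selects cells that carry a resistance gene. They carried a construct for Tbc1d23, which the labels call overexpressed, or for chloramphenicol acetyltransferase (CAT), a bacterial enzyme, in the control line. Each line was left without lipopolysaccharide (LPS, the bacterial cell-wall component that activates macrophages) or given it at 20 ng/ml for 1, 3 or 5 h. The 8 groups of line and time hold 3 replicates each, 24 Agilent 1-colour arrays in all, and the design text calls the replicates biological. There is 1 line per construct, so construct and line cannot be told apart, and the labels do not name the promoter that drives the construct. Whether the replicates were grown apart is not stated, and a p-value here covers no more than the variation among these arrays.

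Ribosomal proteins assemble with ribosomal RNA in the nucleolus, with the help of a large set of processing and export factors, into a small subunit that reads the message and a large subunit that joins amino acids. Their messages begin with a run of pyrimidines at the 5′ end, the terminal oligopyrimidine (TOP) tract, through which the mTOR kinase and the RNA-binding protein Larp1 are known to set how much of each message is translated. Myc is known to raise the transcription of ribosomal protein and ribosome assembly genes, and several free ribosomal proteins bind Mdm2, the ligase that degrades p53. The arrays measured message abundance and not translation.

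The start of the message is shown for 7 members to which the results below return, because the tract is a feature of the family that did not enter the choice of genes. Each line gives 10 bases before and 20 bases from the start site in RefSeq (GRCm38.p6), 5′ to 3′ on the gene's strand, with the longest uninterrupted run of C and T in capitals.
Rps6 (chr4:86857348-86857377, minus strand): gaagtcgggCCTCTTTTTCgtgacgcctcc
Rpl18 (chr7:45718061-45718090, plus strand): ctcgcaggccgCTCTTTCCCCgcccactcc
Rpl27a (chr7:109519185-109519214, plus strand): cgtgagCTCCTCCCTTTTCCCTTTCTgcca
Rps9 (chr7:3704031-3704060, plus strand): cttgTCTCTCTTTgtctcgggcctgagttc
Rpl22l1 (chr3:28805498-28805527, plus strand): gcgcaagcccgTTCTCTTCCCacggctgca
Rpl22 (chr4:152324426-152324455, plus strand): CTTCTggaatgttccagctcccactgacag
Rps15 (chr10:80292421-80292450, plus strand): cagagCTCgcgataactgcgcaagcgcagc

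A run of at least 7 C or T bases in this window, searched on the gene's strand only, was found in 32 of the 61 members that the RefSeq promoter table holds (52.5%), against 5551 of 27025 genes in that table (20.5%). Rpl27a, Rps9, Rps6, Rpl18 and Rpl22l1 carry such runs, whereas Rpl22 and Rps15 have only shorter ones in this window, which says only that these letters are not there. The 32 members with such a run and the 29 without one had median line differences at 0 h of -0.01 and -0.11 (log2), and median responses to 5 h of LPS in the CAT line of 0.25 and 0.26. These values are given as a description.

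Between 42.1 and 69.6% of probes on an array were well above background, and no spot was saturated. Both ends of this range were Tbc1d23 arrays at 0 h, replicate 2 the lowest and replicate 1 the highest. The CAT arrays at 0 h lay at 51.04 to 53.32%. The median signal at 0 h was 44.36, 13.72 and 18.30 units in Tbc1d23 replicates 1, 2 and 3, and 12.02 to 14.87 in CAT cells. What part this had in results scaled on the array's median was not tested. A level is the log2 of a probe's processed signal after subtraction of the log2 of its array's 75th percentile. That percentile was 149 to 349 signal units, and a level says nothing of one gene against another. Of the members, Rpl3l was well above background on 18 of the 24 arrays and every other member's main probe on all arrays where its spot was kept; the spot of Rpl23a was an outlier on 1 array and was left out there. The probe named Tbc1d23 did not pass the test between the lines, at 0.03 ± 0.21 (log2, limma, adjusted p = 0.924) at 0 h and -0.20 ± 0.21 (adjusted p = 0.457) at 5 h. The overexpression that the labels name was thus not seen on this probe, and the labels do not say whether the construct carries the probe's sequence. All 8 macrophage markers on the array (among them Cd68, Itgam and Csf1r) were well above background in every group, with a summed level of 8.28 to 9.36 in the CAT line and 8.06 to 8.97 in the Tbc1d23 line. Of the markers of T and NK cells, B cells, and fibroblasts and epithelium, at most 3 of 5, 2 of 5 and 3 of 6 were well above background in a group. The markers tested also moved with the comparisons given here, although those of other cell types are dim. In CAT cells at 5 h, 4 of 8 macrophage markers were called higher and 1 lower (median 0.58 over the list). Called higher were also 1 of 3 of T and NK cells (0.78), 1 of 2 of B cells (1.33) and 2 of 3 of fibroblasts and epithelium (2.99). These counts stand beside 19.6% of all gene names called higher and 21.8% lower. Between the lines at 5 h the medians of these lists were -0.42, -0.59, -1.01 and -2.52, Tbc1d23 minus CAT, and their part in the results was not tested. In bulk RNA, fewer cells of a type and less RNA per cell cannot be told apart. The arrays lie on 6 slides, each holding the 4 times of 1 replicate of 1 line, in 2 runs of slide serial numbers. Slides of Tbc1d23 replicates 1 and 2 form 1 run, and the slide of Tbc1d23 replicate 3 is in the other run with all 3 CAT slides.

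In the CAT line the members' median level was higher after 3 and 5 h of LPS than before it, and in the Tbc1d23 line it stayed near its starting value, but the direction turned with the way arrays were scaled in both lines, and neither was tested. Scaled on the 75th percentile, the median over the 81 genes was 8.32 ± 0.04 (mean ± SD over 3 arrays) in untreated CAT cells, 8.26 ± 0.22 after 1 h, 8.52 ± 0.21 after 3 h and 8.55 ± 0.15 after 5 h. In Tbc1d23 cells the median was 8.25 ± 0.10, 8.25 ± 0.17, 8.29 ± 0.06 and 8.29 ± 0.08 at 0, 1, 3 and 5 h. At 5 h the lowest CAT array, at 8.44, lay above the highest Tbc1d23 array, at 8.39, whereas at 0 h the arrays of the lines overlapped. The largest spread was among CAT arrays at 1 h, where replicate 1 was at 8.49 and replicate 3 at 8.06. After quantile normalization, which gives all arrays the same distribution of signals, the CAT median was 16.19 ± 0.07, 16.14 ± 0.06, 16.11 ± 0.09 and 16.07 ± 0.09 at 0, 1, 3 and 5 h, lower at each later time, and the Tbc1d23 median 16.01 ± 0.06, 16.03 ± 0.05, 15.92 ± 0.04 and 15.99 ± 0.05. On that scale all 3 CAT arrays lay above all 3 Tbc1d23 arrays at 0 h, and the lines overlapped at 5 h.

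**Figure D1:**
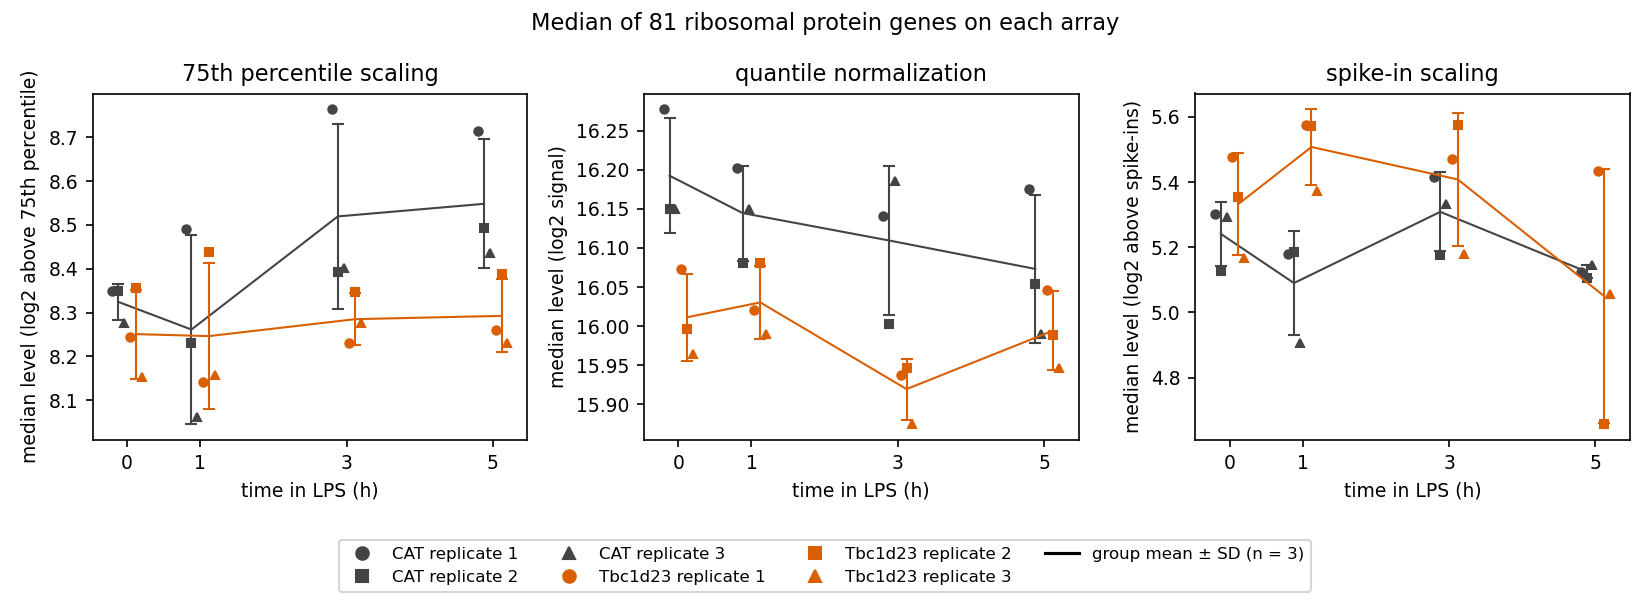
Median level of the 81 ribosomal protein genes on each of the 24 arrays (log2) against hours in LPS, under 3 scalings. Points are arrays, lines join group means and bars are SD over 3 arrays. The dark CAT line ends above its start in the left panel, at 8.55, and below it in the middle panel, at 16.07, and at 5 h on the spike-in scale the Tbc1d23 arrays spread most.

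Exposure of the control line to LPS for 5 h was compared with 0 h to ask how the ribosomal protein messages respond to the stimulus. In limma fitted over all gene names, 9 of 81 members rose and 0 fell in CAT cells (Benjamini-Hochberg adjusted p under 0.05). These are 11.1% of members, where 41.4% of all gene names were called, 19.6% higher and 21.8% lower. The members' values were nearly uniform: 78 of 81 lay above 0, with a median of 0.25 (log2) and quartiles of 0.20 and 0.30, beside a median of 0.06 over all gene names. All 3 treated arrays were above all 3 untreated ones for 56 members and below them for 1; 29.3% of all gene names were higher in this way and 27.5% lower. With line by replicate as a block, which removes the differences between slides, 51 members were called, 50 higher and 1 lower (Rpl3l), against 57.5% of all gene names, and all 9 of the calls above were among them. These counts belong to the 75th percentile scale: after quantile normalization 1 member rose and 4 fell, with a median of -0.06, against 43.3% of all gene names called. Without the array of CAT replicate 1 at 5 h, 1 member was called, without CAT replicate 3 at 0 or 5 h 5 were, and without the slide of Tbc1d23 replicate 3 14 were.

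Rpl7l1, a paralog of the large-subunit protein Rpl7, was the member that rose most in CAT cells. Its level was 3.45, 3.44 and 3.53 at 0 h and 4.29, 4.15 and 4.19 at 5 h in CAT replicates 1, 2 and 3. The groups did not overlap, and the difference was 0.74 ± 0.18 (adjusted p = 0.00223); differences are on the log2 scale and the figure behind ± is limma's standard error. The partner gene Rpl7 differed by 0.27 ± 0.14 (adjusted p = 0.142). In Tbc1d23 cells Rpl7l1 had 3.18, 3.37 and 3.64 at 0 h and 3.58, 3.80 and 4.30 at 5 h. The difference of 0.50 ± 0.18 (adjusted p = 0.13) was not called in the main fit and was called with the block (adjusted p = 2.70e-04). Rpl7l1 was also the 1 member whose rise in CAT cells was called under quantile normalization, at 0.57 ± 0.15 (adjusted p = 0.00405), and when each array was scaled on the members' own median, at 0.51 ± 0.20 (adjusted p = 0.0455).

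Among the other members with the highest calls in CAT cells were large-subunit proteins. Rpl18 had 7.23, 7.24 and 7.34 at 0 h and 8.06, 7.54 and 7.61 at 5 h, a difference of 0.46 ± 0.18 (adjusted p = 0.0452). Rpl8, which lies close to the site of peptide bond formation, had 8.76, 8.90 and 8.96 and 9.42, 9.29 and 9.26, a difference of 0.45 ± 0.14 (adjusted p = 0.014). The groups did not overlap for Rpl18 and Rpl8. The call of Rpl18 was lost without CAT replicate 1 at 5 h, where it was 0.30; it lay close to the threshold and was also lost when most single arrays, of either line, were left out. Under quantile normalization these differences were 0.10 ± 0.14 and 0.18 ± 0.10, and neither was called. Also called, and named after their values were seen, were Rpl19, Rpl23, Rpl24, Rps15 and Rps3a, at 0.28 to 0.36.

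The same exposure in the Tbc1d23 line gave no call among the members: 0 of 81 passed limma's threshold, 1 had an unadjusted p under 0.05, and 6.03% of all gene names were called. With the block 1 member (Rpl7l1) was called, against 15.5% of all gene names. The members' median difference was 0.05, from -0.25 to 0.50, and 53 of 81 lay above 0. The sign of the median turned under quantile normalization, to -0.047 with 55 members below 0, with the deposited values (-0.049) and on spike-in scaling (-0.27). On the spike-in scale the members' median level was 5.48, 5.35 and 5.17 at 0 h in replicates 1, 2 and 3. At 5 h it was 5.44, 4.66 and 5.06, and replicate 2 at 5 h had the brightest spike-ins of all arrays. The arrays at 5 h and 0 h did not overlap for 5 members (15.6% of all gene names).

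The difference between these responses, Tbc1d23 minus CAT, is the test of whether the lines responded differently. It was called for 0 of 81 members (1 at an unadjusted p under 0.05), while 23.0% of all gene names were called. The values lay below 0 for 78 members, with a median of -0.20 beside -0.03 over all gene names; both lines' responses enter each value. With line by replicate as a block, 13 members were called lower and 0 higher, against 19.2% of all gene names lower. Among them were Rpl10, Rpl18, Rpl22l1, Rps6, Rps15 and Rps26, and their values lay between -0.49 and -0.23. Under quantile normalization the median was 0.02 and 1 member, Rpl27a, was called, higher, against 26.0% of all gene names. That call rests on the main probe of Rpl27a. Without quantile normalization the main probe was at 0.23 ± 0.19 (limma over all kept probes, adjusted p = 0.477). A dimmer probe of Rpl27a went the other way in that fit, at -1.04 ± 0.18 (adjusted p = 2.35e-04). The direction for Rpl27a thus depended on the probe.

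The lines themselves were compared before and after LPS. At 0 h, 19 members were lower in Tbc1d23 than in CAT cells and 3 were higher, together 27.2% of members where 45.1% of all gene names were called (20.0% lower and 25.2% higher). The members' median difference was -0.06 (quartiles -0.36 and 0.14) beside 0.10 over all gene names. At 5 h, 35 members were lower and 0 higher, against 23.9% of all gene names lower and 29.4% higher, and the median was -0.32 beside 0.08. All CAT arrays lay above all Tbc1d23 arrays for 29 members at 0 h (23.0% of all gene names) and for 42 at 5 h (27.2%). All 19 genes lower at 0 h were also lower at 5 h. By class, 13 of 43 large-subunit and 6 of 31 small-subunit genes were lower at 0 h, and 25 and 10 at 5 h. Under quantile normalization, with 49.1 and 55.2% of all gene names called at 0 and 5 h, the members gave 35 lower and 3 higher at 0 h, and 33 lower and 5 higher at 5 h, and kept all 19 of the lower calls at 0 h and 32 of 35 at 5 h. Spike-in scaling moved the median of all gene names from 0.10 to 0.26 at 0 h and left 4 members lower and 3 higher, against 36.0% of all gene names called.

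**Figure D2:**
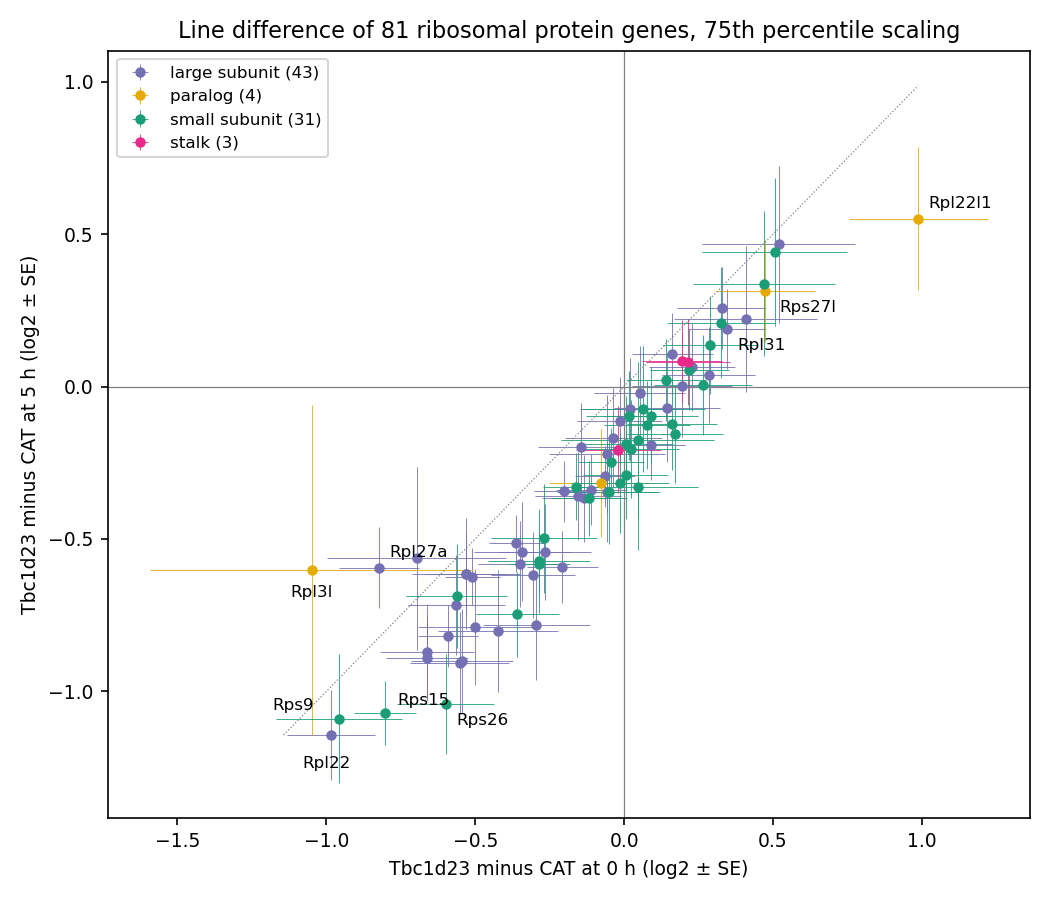
Difference between the lines (Tbc1d23 minus CAT, log2 ± SE of the limma fit) for each of the 81 ribosomal protein genes, at 0 h on the horizontal and at 5 h on the vertical axis. Colours mark the subunits and the dotted line marks equal values. Most points lie below the dotted line, Rpl22, Rps9, Rps15 and the dim Rpl3l lie at the left and Rpl22l1 at the right.

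Rps9, which lines the channel where the message enters the small subunit, was among the lowest in the Tbc1d23 line. Its level at 0 h was 6.33, 6.15 and 6.26 in CAT and 5.46, 5.52 and 4.88 in Tbc1d23 replicates 1, 2 and 3, and the groups did not overlap. The difference was -0.96 ± 0.21 (adjusted p = 0.00111) at 0 h and -1.09 ± 0.21 (adjusted p = 2.55e-04) at 5 h. Rps15, in the head of the small subunit, had 5.14, 5.12 and 5.22 in CAT and 4.38, 4.40 and 4.28 in Tbc1d23 cells, a difference of -0.80 ± 0.10 (adjusted p = 4.77e-06) at 0 h that was -1.07 ± 0.10 (adjusted p = 7.65e-08) at 5 h. Within each line the 3 arrays of Rps15 lay close together. Rps26, which contacts the message as it leaves the small subunit, was among the 4 lowest at 5 h only, with 7.28, 6.75 and 6.86 in CAT and 5.74, 5.87 and 6.16 in Tbc1d23 cells, a difference of -1.04 ± 0.16 (adjusted p = 3.03e-05) after -0.60 ± 0.16 (adjusted p = 0.00589) at 0 h. Rpl27a, of the large subunit, had 4.81, 5.21 and 5.14 in CAT and 4.16, 4.25 and 4.27 in Tbc1d23 cells at 0 h, a difference of -0.82 ± 0.13 (adjusted p = 6.01e-05), and -0.59 ± 0.13 (adjusted p = 0.00101) at 5 h. A dimmer probe of Rpl27a did not pass the test at 0 h, at -0.05 ± 0.13 (adjusted p = 0.777). At 5 h that probe was lower by limma, at -1.09 ± 0.13 (adjusted p = 8.45e-07).

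The slide runs bear on these comparisons, since the slide run and the Tbc1d23 replicate cannot be told apart. Within the run that holds Tbc1d23 replicate 3 and the 3 CAT replicates, 12 members were lower and 0 higher at 0 h (14.5% of all gene names lower), and 20 lower and 0 higher at 5 h (20.4% of all lower). There the Tbc1d23 line has 1 array per time, which is assumed to vary as the CAT arrays do. The run's arrays also entered the calls of the whole set, so a sign shared with that set is no separate check. Of the 19 genes lower at 0 h in the whole set, 9 were called and 19 lay below 0 within the run; at 5 h 16 of 35 were called and 35 lay below 0. Within the run Rps9 differed by -1.37 ± 0.23 (adjusted p = 0.00124) at 0 h, Rps15 by -0.88 ± 0.16 (adjusted p = 0.00231) and Rpl27a by -0.78 ± 0.23 (adjusted p = 0.0259). The calls of Rps26 at 0 h and of Rpl27a at 5 h were lost there, at -0.51 ± 0.25 (adjusted p = 0.144) and -0.52 ± 0.23 (adjusted p = 0.0989).

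Scaling each array on the members' own median shows how the genes moved against one another, whatever the level of the family. It sets that median to 0 on every array, so values on both sides of 0 follow from the scaling itself. At 0 h 14 members were then lower and 13 higher in the Tbc1d23 line, against 41.6% of all gene names called on that scale, and at 5 h 23 were lower and 17 higher (53.9% of all). Of these, 14 were lower and 12 higher at both times, and 0 changed sides. Called and lowest relative to the family at 0 h were Rpl22 (-0.91 ± 0.11), Rps9 (-0.88 ± 0.16), Rpl27a (-0.75 ± 0.13) and Rps15 (-0.73 ± 0.09). Among the higher ones were the paralogs Rpl22l1 (1.06 ± 0.19) and Rps27l (0.55 ± 0.09), both called. Dim Rpl3l was at -0.98 ± 0.59 and not called. For the response of CAT cells to LPS this scale left 1 member called, Rpl7l1, against 40.7% of all gene names. Over all members the absolute line difference at 0 h had a median of 0.27, beside 0.50 over all gene names, and the SD between replicates a median of 0.19 beside 0.24.

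Rpl22 and Rpl22l1 are a pair of large-subunit paralogs, of which Rpl22 is known to hold down the message of Rpl22l1. They stood at opposite ends of the line difference at 0 h. Their probes are shown because the result rests on their telling the paralogs apart; each is 60 bases long, as the array's design gives it, 5′ to 3′, with its mm9 position on the plus strand.
Rpl22, main probe (chr4:151704158-151704217): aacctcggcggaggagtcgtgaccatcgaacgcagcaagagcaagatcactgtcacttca
Rpl22l1, main probe (chr3:28706197-28706256): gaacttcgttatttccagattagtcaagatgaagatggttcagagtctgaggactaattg
The longest run of bases that both sequences share is 6 bases. Rpl22 had 7.97, 7.93 and 7.87 in CAT and 6.88, 6.92 and 7.01 in Tbc1d23 cells at 0 h, and 8.30, 7.98 and 7.93 against 6.86, 6.95 and 6.97 at 5 h. All CAT arrays lay above all Tbc1d23 arrays at both times, and the difference was -0.98 ± 0.15 (adjusted p = 2.71e-05) at 0 h, a 1.98-fold lower level in Tbc1d23 cells, and -1.14 ± 0.15 (adjusted p = 3.13e-06) at 5 h.

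Rpl22l1 had 6.61, 6.70 and 6.58 in CAT and 7.67, 7.99 and 7.18 in Tbc1d23 cells at 0 h. All Tbc1d23 arrays were higher, and the lowest of them was replicate 3. The difference was 0.99 ± 0.23 (adjusted p = 0.00205) at 0 h, a 1.98-fold higher level, and 0.55 ± 0.23 (adjusted p = 0.0558) at 5 h, which missed the threshold. Within the slide run of both lines it was 0.55 ± 0.21 (adjusted p = 0.0613) at 0 h and 0.14 ± 0.21 (adjusted p = 0.618) at 5 h, whereas Rpl22 was -0.92 ± 0.26 (adjusted p = 0.0198) and -1.10 ± 0.26 (adjusted p = 0.0059) there. A dimmer probe of Rpl22 went the same way, with 3.38, 4.13 and 3.97 in CAT and 0.03, 0.23 and 0.17 in Tbc1d23 cells at 0 h, a difference of -3.68 ± 0.19 (adjusted p = 3.11e-11). On that probe CAT cells fell by 1.50 after 5 h of LPS (adjusted p = 2.95e-06), while the main probe differed by 0.15 ± 0.15 (adjusted p = 0.499). A dim probe of Rpl22l1 was not well above background on any CAT array at 0 h and was so on 2 of 3 Tbc1d23 arrays. Its levels in Tbc1d23 replicates 1, 2 and 3 were -2.36, -4.19 and -3.74, and their mean was at least 2.18-fold higher than in CAT cells. The bound sets that mean over all 3 arrays against a floor on each CAT array. The floor is the dimmest signal still well above background there or, if higher, that of the probe.

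**Figure D3:**
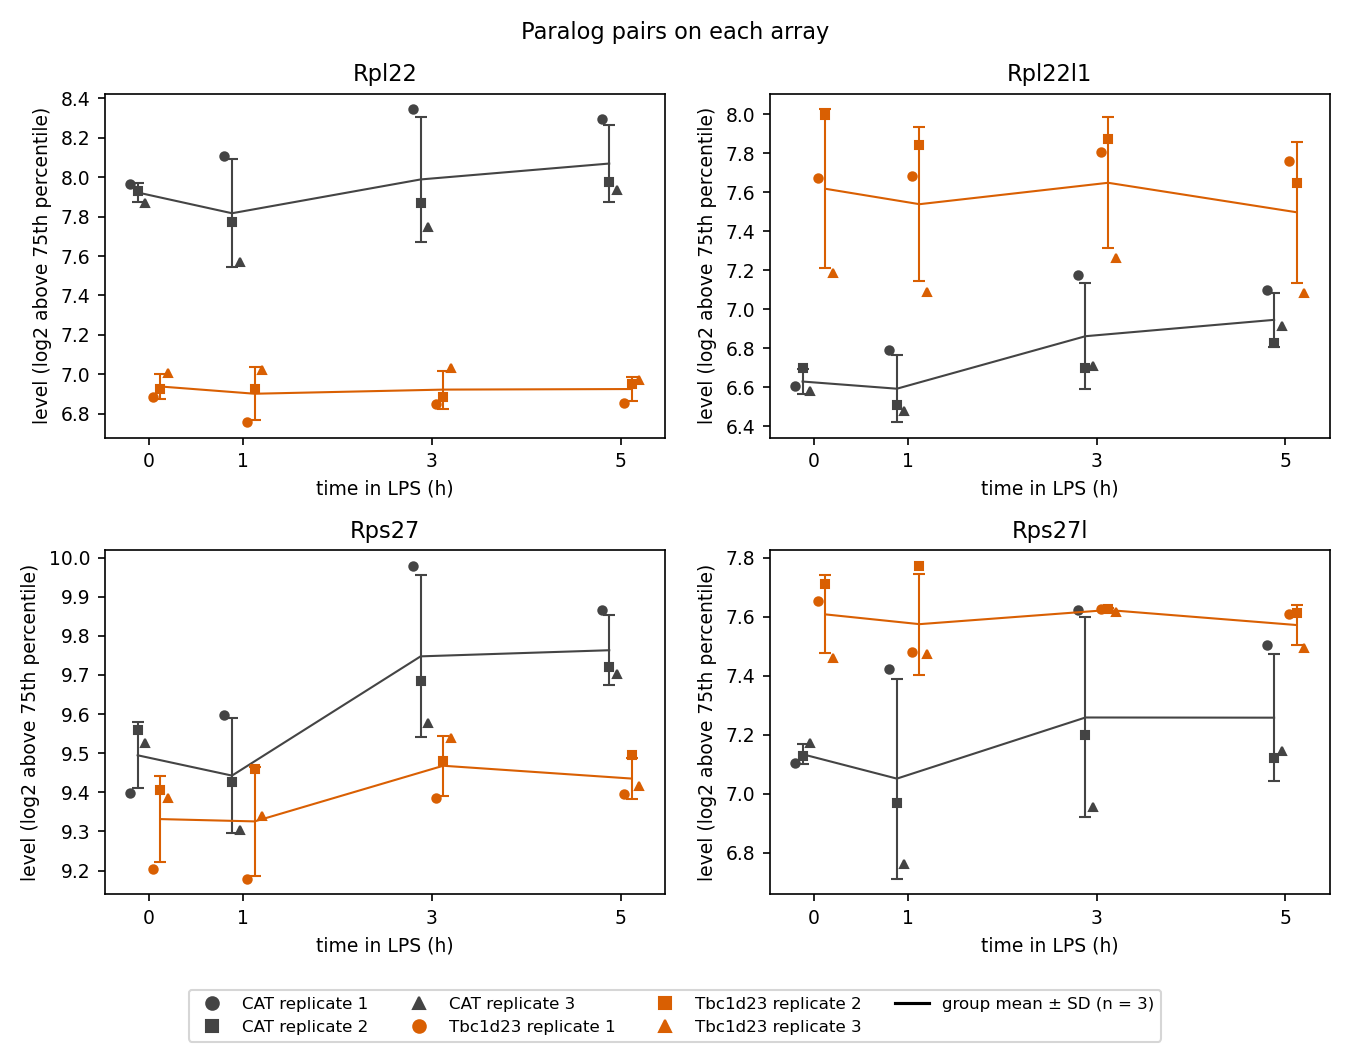
Level of Rpl22, Rpl22l1, Rps27 and Rps27l (log2 above the array's 75th percentile) on each of the 24 arrays against hours in LPS. Points are arrays, lines join group means and bars are SD over 3 arrays. For Rpl22 the CAT means run from 7.82 to 8.07 and the Tbc1d23 means from 6.90 to 6.94, and for Rpl22l1 the Tbc1d23 means are the higher ones, with replicate 3 lowest among those arrays.

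Rps27l, a paralog of the small-subunit protein Rps27 and known as a p53 target, had 7.10, 7.13 and 7.17 in CAT and 7.65, 7.71 and 7.46 in Tbc1d23 cells at 0 h, and the groups did not overlap. It was called higher at 0 h, at 0.47 ± 0.17 (adjusted p = 0.0271), and not at 5 h, at 0.31 ± 0.17 (adjusted p = 0.125). The call at 0 h was lost without Tbc1d23 replicate 1 or 2 or any 1 CAT array at 0 h, with values of 0.42 to 0.49, and within the slide run of both lines the value was 0.33 ± 0.29 (adjusted p = 0.409). On median scaling the value at 0 h turned to -0.08. Rps27 itself differed by -0.16 ± 0.11 (adjusted p = 0.251) at 0 h and -0.33 ± 0.11 (adjusted p = 0.0182) at 5 h. Rpl3l, the paralog of Rpl3 known from muscle, was dim, with -3.35, -3.21 and -3.37 in CAT and -3.94, -5.46 and -3.68 in Tbc1d23 cells at 0 h, and neither it (-1.05 ± 0.54, adjusted p = 0.128) nor Rpl3 (-0.70 ± 0.30, adjusted p = 0.0689) passed the test. Rpl10, a late-joining large-subunit protein, was lower at 0 h (-0.59 ± 0.10, adjusted p = 1.11e-04), and Rpl39, at the peptide exit tunnel, differed by 0.16 ± 0.14 (adjusted p = 0.359). The main probe of Rpl10 has a file position on chromosome 8 and that of Rpl12 on chromosome 10, where RefSeq places the genes on X and 2. A dimmer probe of Rpl10 with a file position on X was also lower in the Tbc1d23 line by limma over all kept probes. It differed by -0.92 ± 0.28 (adjusted p = 0.0122) at 0 h and -1.20 ± 0.28 (adjusted p = 0.00146) at 5 h. Processed copies of ribosomal protein genes are common in the mouse genome, and a probe cannot tell a transcribed copy of the same sequence from the gene.

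Rpl5 and Rpl11 bind Mdm2 together with the 5S ribosomal RNA, and Rpl23 binds it too. Rpl5 had 9.62, 9.43 and 9.31 in CAT and 8.29, 8.46 and 8.88 in Tbc1d23 cells at 5 h, without overlap. It was lower in the Tbc1d23 line, with a difference of -0.55 ± 0.17 (adjusted p = 0.0115) at 0 h and -0.91 ± 0.17 (adjusted p = 1.57e-04) at 5 h. Both calls were lost within the slide run of both lines, at -0.48 ± 0.24 (adjusted p = 0.157) and -0.57 ± 0.24 (adjusted p = 0.0823), and that at 0 h also on spike-in scaling and when slide run was blocked, at -0.38 ± 0.16 (adjusted p = 0.0632). On their main probes Rpl11 (0.02 ± 0.17, adjusted p = 0.939) and Rpl23 (0.09 ± 0.11, adjusted p = 0.567) did not pass the test at 0 h, nor at 5 h, where they were at -0.07 ± 0.17 and -0.19 ± 0.11. Their dimmer probes did pass and went opposite ways, at 1.12 ± 0.18 (adjusted p = 4.81e-05) for Rpl11 and -0.78 ± 0.16 (adjusted p = 6.98e-04) for Rpl23 at 0 h, and 1.17 ± 0.18 (adjusted p = 2.06e-05) and -0.53 ± 0.16 (adjusted p = 0.0108) at 5 h. On its main probe Rpl23 rose in CAT cells at 5 h by 0.34 ± 0.11 (adjusted p = 0.0212), a sign that turned to -0.03 under quantile normalization, while Rpl5 (0.42 ± 0.17, adjusted p = 0.0548) and Rpl11 (0.24 ± 0.17, adjusted p = 0.299) were not called.

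The stalk proteins Rplp0, Rplp1 and Rplp2, which recruit the elongation factors, were not called in any of the 5 comparisons on this scale. Their line differences at 0 h were -0.02 ± 0.14, 0.20 ± 0.13 and 0.22 ± 0.14, and their responses in CAT cells 0.32 ± 0.14, 0.23 ± 0.13 and 0.26 ± 0.14. Rps6, the small-subunit protein that S6 kinases phosphorylate, had 6.72, 6.89 and 7.07 in CAT and 7.07, 7.24 and 6.50 in Tbc1d23 cells at 0 h. The groups overlapped, with Tbc1d23 replicate 3 lowest of all, and the difference was 0.05 ± 0.20 (adjusted p = 0.885). Rps27a, made as a fusion with ubiquitin, had 8.82, 9.09 and 8.32 in Tbc1d23 cells, against 8.10, 8.35 and 8.28 in CAT cells, and did not pass the test (0.51 ± 0.24, adjusted p = 0.101). Here Tbc1d23 replicate 3 lay within the range of the CAT arrays. Rpsa, also named for a laminin receptor, was lower in the Tbc1d23 line, with a difference of -0.56 ± 0.17 (adjusted p = 0.0117) at 0 h that was lost without Tbc1d23 replicate 1 or CAT replicate 3 at 0 h (-0.44 and -0.45), and -0.69 ± 0.17 (adjusted p = 0.00232) at 5 h. Both calls of Rpsa were lost with the mean of its probes and within the slide run of both lines, where the values were -0.36 ± 0.23 (adjusted p = 0.252) and -0.47 ± 0.23 (adjusted p = 0.127), and its dimmer probe differed by -0.09 ± 0.24 (adjusted p = 0.79) at 0 h. Rpl31 was called higher at 0 h (0.34 ± 0.13, adjusted p = 0.0401) on its main probe and lower on its other probe, at -0.90; the mean of its probes gave -0.28.

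The line difference varied with the base composition of the probes. Across the 81 genes it fell with the share of G and C in the main probe, with a Spearman correlation of -0.48 at 0 h and -0.49 at 5 h, and -0.10 and -0.11 across all gene names. The correlation lay between -0.49 and -0.42 in each Tbc1d23 array at these times set against the CAT mean. The genes share arrays, and the correlations are a description with no test. The 27 genes whose probes were lowest in G and C (35 to 43.3%) had a median difference of 0.09 at 0 h and 3 lower calls, and the 27 highest (50 to 75%) a median of -0.29 and 10 lower calls. At 5 h the medians were -0.07 and -0.51. The response of CAT cells to LPS had a correlation of 0.06 with G and C. The line difference at 0 h also had a correlation of 0.48 with the members' mean level. Whether base composition or level plays a part in the differences named above was not tested; Rps9, Rps15 and Rpl22 have probes of 53.3, 55 and 55% G and C, and Rpl22l1 and Rps27l of 38.3 and 41.7%.

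**Figure D4:**
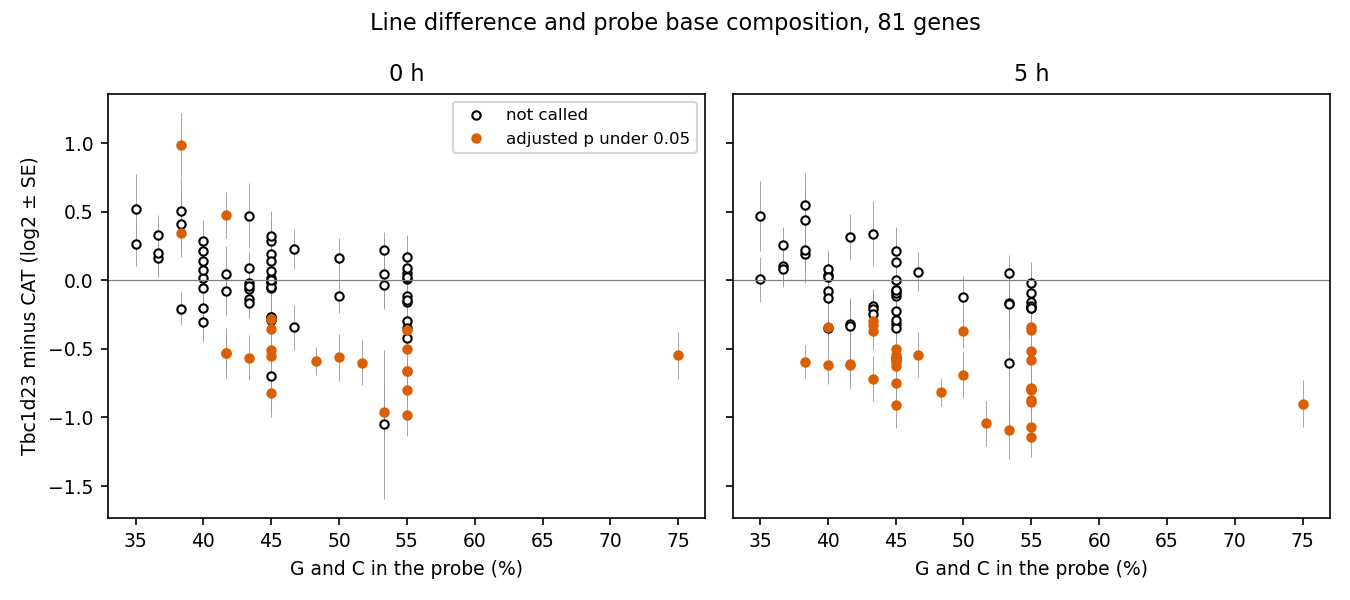
Line difference (Tbc1d23 minus CAT, log2 ± SE) of the 81 genes at 0 h (left) and 5 h (right) against the percentage of G and C in the main probe. Filled points have an adjusted p under 0.05. Points with G and C under 40% lie mostly above 0 at 0 h, and the filled points below 0 lie mostly at 45% and above.

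Probes of the same gene did not always give the same result. Of 35 members with several probes well above background on all arrays, 8 had probes whose line differences at 0 h lay more than 1 log2 unit apart, and in 2 (Rpl31 and Rps28) probes were called in opposite directions; over all kept probes 45.0% were called. The response of CAT cells to LPS differed by more than 1 between probes of 2 genes, Rpl22 and Rpl27a. Rpl7a, which is also the host of small nucleolar RNAs, shows how close such probes can lie. Its main probe and a dimmer one overlap in mm9, and the bases they share are in capitals.
Rpl7a, main probe (chr2:26768694-26768753): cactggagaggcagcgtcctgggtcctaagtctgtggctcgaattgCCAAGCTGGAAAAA
Rpl7a, dimmer probe (chr2:26768740-26768798): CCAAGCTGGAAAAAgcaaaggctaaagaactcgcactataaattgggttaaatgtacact
The main probe had 10.20, 10.35 and 10.34 in CAT and 10.31, 10.59 and 10.16 in Tbc1d23 cells at 0 h. The dimmer probe had 5.03, 5.49 and 5.55 in CAT cells and 8.05, 8.28 and 5.09 in Tbc1d23 replicates 1, 2 and 3. On it the Tbc1d23 arrays of replicates 1 and 2 stood far above all others, and replicate 3 lay with the CAT arrays. Its line difference was 1.78 ± 1.03 (adjusted p = 0.173), beside 0.05 ± 0.15 (adjusted p = 0.814) on the main probe and -0.64 ± 0.10 (adjusted p = 3.87e-05) on a probe further upstream.

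This step between Tbc1d23 replicates, which follows the slide run at every time, was looked for after it was seen in the values. Among the 134 kept probes of members, 5 had all Tbc1d23 arrays of replicates 1 and 2 more than 1 log2 unit above all arrays of replicate 3, and 0 had the reverse. They were the dimmer probes of Rpl7a and Rps3a, 2 of Rps21 and 1 of Rpl29. The first 4 averaged 2.71 to 3.25 higher in replicates 1 and 2 than in replicate 3, which was within 0.46 of the CAT mean. Among all 21960 kept probes 292 (1.33%) showed the step upward, beside 3.73% of the members' probes. None of these 5 was a main probe, so the counts of called members above rest on other probes; slide run and replicate cannot be told apart here.

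**Figure D5:**
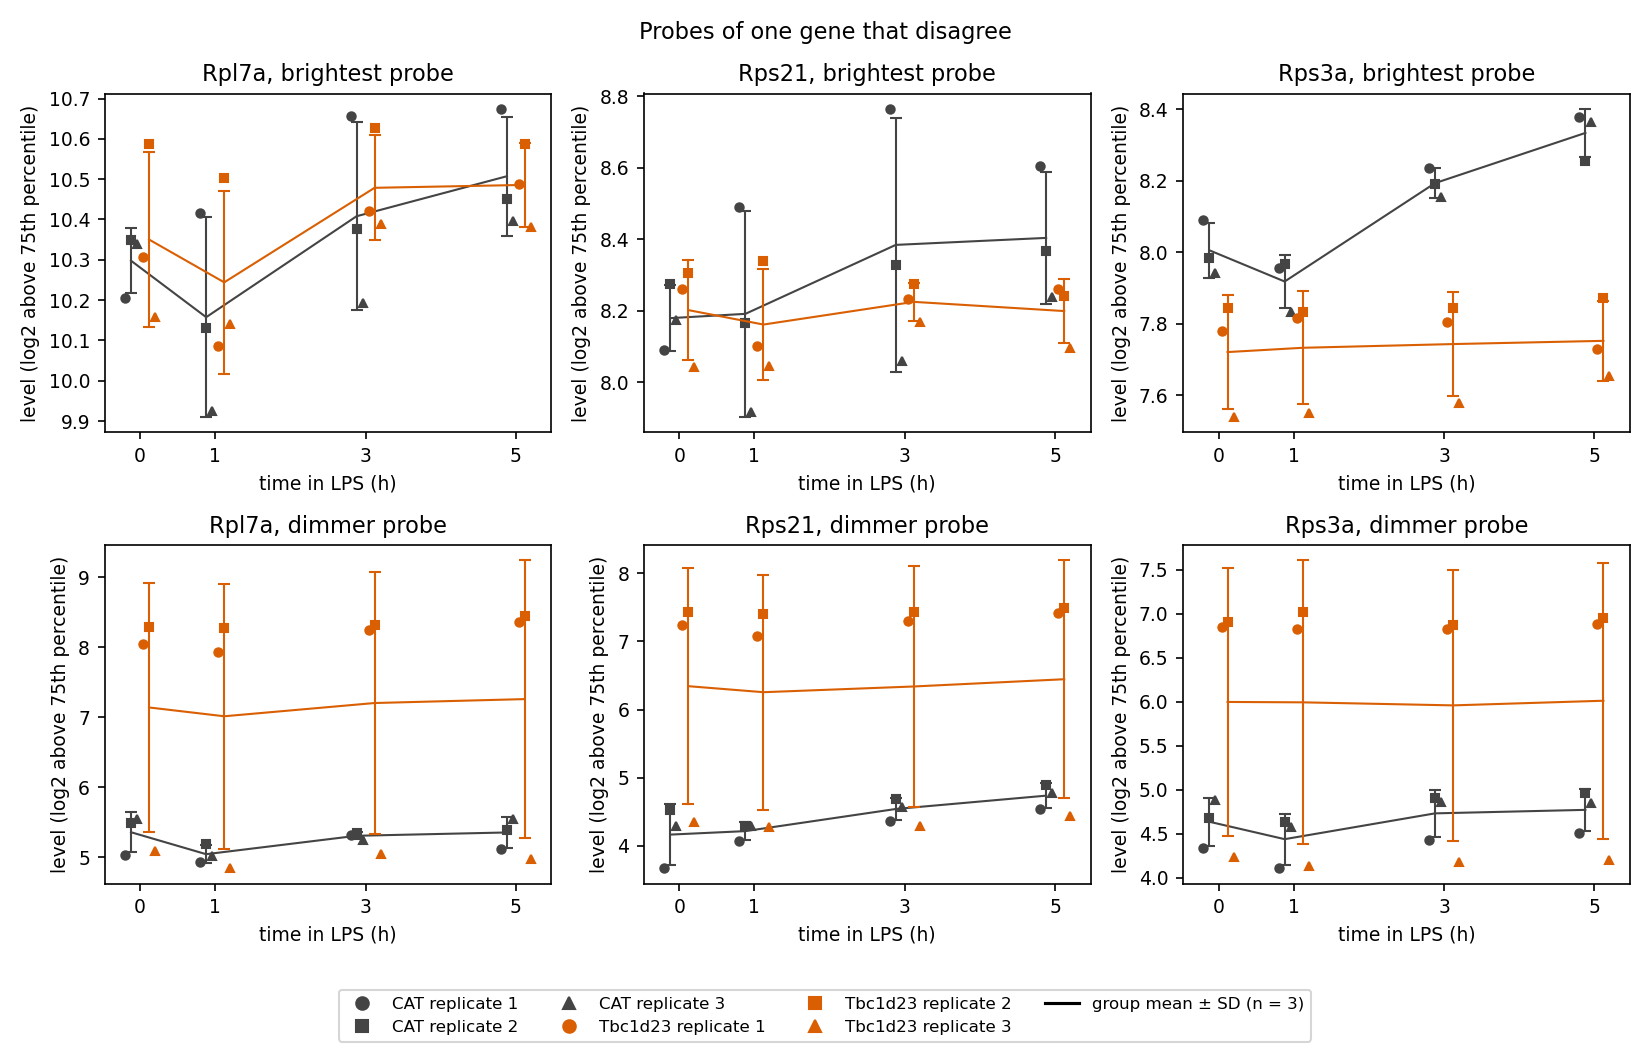
Level (log2 above the array's 75th percentile) of the main probe (top) and of a dimmer probe (bottom) of Rpl7a, Rps21 and Rps3a on each of the 24 arrays against hours in LPS. Points are arrays, lines join group means and bars are SD over 3 arrays. In the bottom panels Tbc1d23 replicates 1 and 2 lie more than 1 log2 unit above replicate 3 and the CAT arrays at every time, and in the top panels they do not.

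Genes that work with the ribosomal proteins were read from lists of other translation and growth genes. Their counts stand beside 19.6% of all gene names higher and 21.8% lower in CAT cells at 5 h, and 25.2% higher and 20.0% lower between the lines at 0 h. Genes for ribosome assembly gave, in CAT cells at 5 h, 25 of 61 higher and 4 lower and a median of 0.33 (0.18 under quantile normalization), beside 9 of 81 members higher. The highest were Rrp9, a component of the nucleolar particle that processes ribosomal RNA (1.33 ± 0.15, adjusted p = 4.96e-07), and Noc3l (1.13 ± 0.13, adjusted p = 4.52e-07). In Tbc1d23 cells 1 of these genes rose and 0 fell, against 6.03% of all gene names called. Between the lines at 0 h 20 were higher and 5 lower in Tbc1d23 cells, with a median of 0.18 (0.09 under quantile normalization), where the ribosomal proteins had -0.06. At 5 h 14 assembly genes were higher and 7 lower, with a median of -0.09, against 29.4% of all gene names higher and 23.9% lower. The lists and the ribosomal proteins were not set against each other by a test. Translation initiation factors gave 11 higher and 1 lower of 33 in CAT cells, with a median of 0.22 that turned to -0.03 under quantile normalization; Eif6, which keeps the subunits apart, was the highest (1.36 ± 0.17, adjusted p = 2.00e-06). Of 8 elongation genes 3 were lower in the Tbc1d23 line at 0 h and 6 at 5 h (of all gene names 23.9% were lower at 5 h), and Eef2, which moves the ribosome along the message, differed by -1.85 ± 0.21 (adjusted p = 7.66e-07) at 0 h. Genes of the mitochondrial ribosome, which is a separate machine, gave 11 higher and 17 lower of 75 at 0 h, and 18 higher and 10 lower in CAT cells after LPS. Other messages with a pyrimidine tract gave 0 higher and 3 lower of 11 at 0 h, among them Nap1l1, a histone chaperone (-1.24 ± 0.16, adjusted p = 3.39e-06), and 3 higher and 1 lower in CAT cells after LPS.

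Of 4 ribosomal protein genes whose names fall outside the rule, 2 were lower in the Tbc1d23 line at 0 h and 3 at 5 h. Rpl36al, a paralog of Rpl36a, differed by -0.85 ± 0.22 (adjusted p = 0.00361) at 0 h, and Fau, which makes a small-subunit protein fused to a ubiquitin-like one, by -0.55 ± 0.21 (adjusted p = 0.0431). The transcription factor Myc rose in both lines, from -2.71 to 3.58 in CAT cells (means of 3 arrays) and from -3.88 to -0.38 in Tbc1d23 cells. The differences were 6.28 ± 0.22 (adjusted p = 3.56e-14) and 3.49 ± 0.22 (adjusted p = 3.46e-09), and their difference -2.79 ± 0.31 (adjusted p = 1.43e-06). The untreated Myc level in Tbc1d23 cells lay among those of dim Rpl3l there (-3.94, -5.46 and -3.68). The sizes of the Tbc1d23 rise and of the difference between the lines may therefore be limited by signal. Larp1, the binder of the pyrimidine tract, rose in CAT cells by 0.98 ± 0.12 (adjusted p = 2.03e-06) and differed by 0.08 ± 0.12 (adjusted p = 0.944) in Tbc1d23 cells. The p53 targets Mdm2 and Cdkn1a were higher in the Tbc1d23 line at 0 h, by 2.76 ± 0.09 (adjusted p = 6.81e-14) and 2.88 ± 0.17 (adjusted p = 1.85e-10), and Trp53 itself differed by -0.04 ± 0.20 (adjusted p = 0.902). Sesn2 and Ddit4, which restrain mTOR, were higher by 3.02 ± 0.19 (adjusted p = 3.45e-10) and 2.52 ± 0.28 (adjusted p = 7.25e-07).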

How the data were processed

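Messages of cytosolic ribosomal protein genes were measured on 24 one-colour Agilent mouse arrays. The deposited scanner files hold spot intensity that the authors had extracted with Agilent's software (version 10.7.1.1 per the file headers), which subtracts background and puts a surrogate in place of low values. The deposited values for each probe (log2, scale found from the values) rank as those intensities do (Spearman correlation per array 0.9997 or more), every column has the median 3.87, and genes are not centred; they served as an alternative. RMA and Partek also appear in the submitters' processing notes, without versions.

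Outlier spots were left out and spots of a probe averaged. Each array's log2 signals were set relative to the log2 of their 75th percentile. A probe was kept if all 3 arrays of some group had it well above background (21960), and each gene name took its probe with the highest mean. Probe positions are those of the files (mm9). Through accessions, 75 members matched the same RefSeq symbol and 1 (Rps3a, now Rps3a1) another; 5 accessions were not in the table. The 8 group means were estimated from all arrays in R 4.3.3 by lmFit and eBayes of limma 3.58.1, with Benjamini-Hochberg adjustment within a contrast over all gene names. The fit was tested on simulated data for the line difference at 0 h. Precision is limited by 3 arrays per group.

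Arrays of the same slide, which share line and replicate number, deviated together from their group means (correlations 0.19 to 0.83), so line by replicate was used as a block beside the LPS responses; arrays of the other line with the same number and time did not (-0.41 to -0.07). Background correction by normexp could not be fitted on 6 arrays and was replaced by floored subtraction, chosen after seeing the data. Alternatives were other scalings, probe choices, filters, blocks, the slide run of both lines and leaving out arrays. Named members were the 4 highest and 4 lowest calls per comparison, plus the stalk, Mdm2-binding and paralog genes; from other lists up to 3 genes with the largest called differences, and any measured growth regulator; the values of 1 member that this rule names are not reported here. The members and lists were chosen with earlier results of these data known. The 1 and 3 h times were described by levels.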

Additional observations from a re-analysis of the deposited data

Results flagged for a closer look

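For 10 of the 22 regulators of growth and translation tested, none of them a ribosomal protein gene, the response to 5 h of LPS differed between the lines by limma's test of the difference itself (Tbc1d23 response minus CAT response, log2 ± SE, adjusted over all gene names, of which 23.0% were called). Values below 0 mean that the response was lower in the Tbc1d23 line, with its direction in each line not given by the value. The Myc family differed by -2.79 ± 0.31 (adjusted p = 1.43e-06) for Myc, 0.67 ± 0.15 (adjusted p = 0.00318) for Mycn and -2.50 ± 0.28 (adjusted p = 1.47e-06) for the Myc antagonist Mxd1. Myc was dim in untreated Tbc1d23 cells, so the size of its value may be limited by signal. Among genes that act on TOP messages and cap-dependent translation, Larp1 differed by -0.89 ± 0.17 (adjusted p = 6.31e-04) and Eif4ebp1 by -1.04 ± 0.26 (adjusted p = 0.00562). Of the stress response genes, Atf4 differed by -1.38 ± 0.21 (adjusted p = 4.70e-05), Ddit3 by -1.49 ± 0.27 (adjusted p = 3.63e-04) and Sesn2 by -1.31 ± 0.26 (adjusted p = 0.00102). The p53 targets Mdm2 and Cdkn1a differed by -1.46 ± 0.13 (adjusted p = 7.81e-08) and -1.71 ± 0.24 (adjusted p = 2.50e-05). None of the 81 ribosomal protein genes was called in the same test; with line by replicate as a block 13 were, all lower, against 39.6% of all gene names.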

How the results depend on the processing

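The share of all gene names called stands in parentheses after the counts under other settings. At 0 h the main count of 22 members called between the lines (45.1%) was 38 under quantile normalization (49.1%) and with the deposited values (49.0%), 7 on spike-in scaling (36.0%) and 12 within the slide run of both lines (34.6%), and the median was -0.61 on median scaling and 0.11 on spike-in scaling. At 5 h the count of 35 (53.3%) was 18 on median scaling (31.2%), 20 on spike-in scaling (46.6%) and 20 within the run (44.7%), and the median was -0.17 under quantile normalization, -0.17 with the deposited values, -0.56 on median scaling and -0.14 on spike-in scaling. For the CAT response the count of 9 (41.4%) was 5 under quantile normalization (43.3%), 4 with the deposited values (43.1%), 0 on median (21.1%) and on spike-in scaling (38.4%), 18 on scaling by detected probes (42.6%), 1 on the members' median (40.7%), 3 with no filter (19.9%), 22 blocked by slide run (48.9%) and 49 with slides as a random block (55.3%); its median turned to -0.055 under quantile normalization, -0.055 with the deposited values and -0.0911 on spike-in scaling. For the Tbc1d23 response 1 member was called when blocked by slide run (10.0%) or with slides as a random block (15.5%), and the median was 0.30 on median and -0.27 on spike-in scaling. For the interaction the count of 0 (23.0%) was 1 under quantile normalization (26.0%) and with the deposited values (25.8%), 2 with the mean of probes (23.9%), 2 blocked by slide run (30.8%) and 9 with slides as a random block (38.4%), and the median turned to 0.0216, 0.0203 and 0.1134 under quantile normalization, the deposited values and median scaling. The causes were not tested.

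With the replicate number within a line as a block, the pairing gave 51 members called in the CAT response (57.5%), 1 in the Tbc1d23 response (15.5%) and 13 in the interaction (39.6%). The line differences, across which the numbers do not pair the arrays, had 29 calls at 0 h (49.1%) and 39 at 5 h (56.6%) with that block.

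Among named members, Rps27l at 0 h turned to -0.0826 on median scaling, Rpl31 at 0 h to -0.21 on median scaling and -0.2801 with the mean of probes, and Rpl23 in the CAT response to -0.0332 under quantile normalization and -0.0362 with the deposited values. Of the other values of named members, 340 kept direction and call and 75 kept direction and lost the call.

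Leaving out single arrays or a Tbc1d23 slide gave 16 to 32 calls at 0 h, 27 to 43 at 5 h, 1 to 14 in the CAT response, 0 to 1 in the Tbc1d23 response and 0 to 2 in the interaction. The extra Tbc1d23 call came without its replicate 1 at 5 h, and the 2 in the interaction without the slide of Tbc1d23 replicate 3. The medians ranged from -0.10 to -0.01, -0.33 to -0.25, 0.18 to 0.30, 0.02 to 0.11 and -0.24 to -0.13 in the same order. Normexp background correction was not run, and members near background, such as Rpl3l, are limited by signal.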
